A study of Mus musculus with 2 samples.

Results

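The 9 genes described here encode enzymes that stand in the apical membrane of the absorptive enterocyte, the brush border: sucrase-isomaltase (Sis), maltase-glucoamylase (Mgam), lactase (Lct), trehalase (Treh), aminopeptidase N (Anpep), aminopeptidase A (Enpep), dipeptidyl peptidase 4 (Dpp4), the alpha subunit of meprin (Mep1a) and intestinal alkaline phosphatase (Alpi). They were taken by symbol from a table of 27275 genes, and all 9 were present, each on 1 row. The table holds FPKM, reads scaled to gene length and library size, for 2 libraries of mouse small intestine, 1 per genotype. The knockout library is labelled Spibfl/flVillin-Cre: the gene for the ETS factor Spib carries loxP sites and is removed by Cre recombinase under the villin promoter, which acts in the intestinal epithelium. The wild-type library is labelled Spib+Villin-Cre, so that both labels name the Cre transgene. The mice were naive, and the labels state neither their age nor their number per library. In what follows, wild type and knockout stand for these libraries, and of paired values the wild type comes first.

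Digestion of sugars and peptides ends at the brush border. Pancreatic amylase and proteases leave short glucose chains and peptides, which disaccharidases and peptidases of the microvillus cut to monosaccharides, amino acids and small peptides beside the carriers that take them up. Most of these enzymes are anchored by a single membrane span or by a lipid, and their messages are made as enterocytes leave the crypt and mature along the villus. Factors of the HNF4, CDX and GATA families are known to drive their genes. At weaning, mouse enterocytes shift from a lactase-rich to a sucrase- and trehalase-rich program.

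The library size implied by the FPKM values was 17425640 reads in wild type and 17658566 in the knockout. Whether it counts sequenced, mapped or gene-assigned reads cannot be read from the values. Spib itself had 4.94 FPKM in wild type and 0.592 in the knockout, in the direction of the labels. Transcripts of the mitochondrial genome made up 7.65% of all FPKM in wild type and 10.01% in the knockout. Summed levels of the lymphocyte markers were lower in the knockout, from 17.4 to 7.33 FPKM over 8 T cell genes and from 24.1 to 8.97 FPKM over 5 B cell genes. The submitters' design text places the tissue in the proximal small intestine. The duodenal factor Pdx1 had 4 reads and 1 read, whereas Fabp6, the bile acid binding protein of the ileum, had 2030 and 1735 FPKM and Slc10a2, the ileal bile acid carrier, had 92.6 and 92.1 FPKM. Gata4, a factor of the proximal gut, had 15.7 and 17.2 FPKM. The tissue is therefore called small intestine here, without a segment.

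All 9 messages were abundant in both libraries, and Anpep was the most abundant of them. In the wild-type library the levels ran from 1888 FPKM for Anpep to 62.6 FPKM for Treh, with Sis, Mgam and Enpep between 868 and 597 FPKM and Mep1a, Alpi, Dpp4 and Lct between 255 and 190 FPKM. Anpep ranked 19th and Sis 46th among all genes of that library. In the knockout library Anpep ranked 27th and Sis 32nd, with Treh again lowest at 59.0 FPKM. The order of the 9 levels was the same in both libraries apart from Mep1a and Alpi, which changed places with a ratio of Mep1a to Alpi of 1.05 in wild type and 0.951 in the knockout. FPKM is scaled to gene length, so these levels can be set beside each other. The depth behind them was high, from 2134 reads for Treh in the knockout to 158611 reads for Sis in the same library. One library per genotype allows no test between genotypes, so the folds that follow are descriptions of a pair of libraries and carry no p-value.

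**Figure D1:**
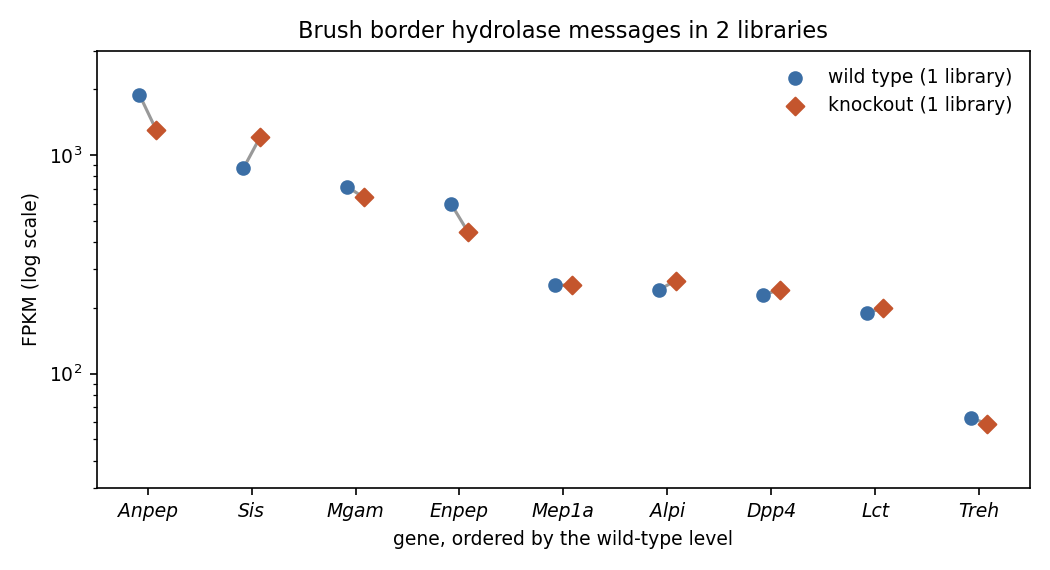
FPKM on a log axis of each brush border hydrolase, ordered by the wild-type level, with 1 circle for the wild-type library, 1 diamond for the knockout library and a line joining them; no error bars are drawn because each genotype has 1 library. Anpep and Enpep are lower and Sis is higher in the knockout, and the symbols of the other genes lie close together.

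The promoters of the gene that was highest in the knockout relative to the wild type, of the lowest pair, and of lactase are shown to make visible how unlike the start regions of these enzymes are. Each is the 250 bases before the gene start, 5′ to 3′ on the strand of the gene, from RefSeq (build GRCm38.p6, the same assembly as mm10; the first listed start where a gene has several). Sis lies at chr3:72967864-72968113, Lct at chr1:128328319-128328568, Anpep at chr7:79848211-79848460 and Enpep at chr3:129332750-129332999, all on the minus strand. Capitals mark matches, on either strand, to 4 short motifs: GATAA for factors of the GATA family, TTTATG for the homeobox factor CDX2, GAGGAA for ETS factors and CAAAGTCCA for HNF4 factors.
Sis: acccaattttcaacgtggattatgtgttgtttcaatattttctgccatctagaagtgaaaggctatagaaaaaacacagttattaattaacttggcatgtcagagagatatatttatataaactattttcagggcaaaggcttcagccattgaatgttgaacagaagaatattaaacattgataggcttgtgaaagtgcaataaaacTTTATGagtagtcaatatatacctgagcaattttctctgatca
Lct: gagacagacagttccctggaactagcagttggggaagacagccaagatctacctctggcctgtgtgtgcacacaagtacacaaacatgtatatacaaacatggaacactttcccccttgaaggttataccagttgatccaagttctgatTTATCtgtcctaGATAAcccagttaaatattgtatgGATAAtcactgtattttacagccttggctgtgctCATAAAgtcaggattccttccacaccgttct
Anpep: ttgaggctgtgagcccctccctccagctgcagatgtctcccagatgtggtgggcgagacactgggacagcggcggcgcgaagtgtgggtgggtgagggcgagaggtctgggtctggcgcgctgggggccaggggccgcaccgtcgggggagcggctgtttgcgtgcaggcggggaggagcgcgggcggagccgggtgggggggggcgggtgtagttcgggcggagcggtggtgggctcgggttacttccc
Enpep: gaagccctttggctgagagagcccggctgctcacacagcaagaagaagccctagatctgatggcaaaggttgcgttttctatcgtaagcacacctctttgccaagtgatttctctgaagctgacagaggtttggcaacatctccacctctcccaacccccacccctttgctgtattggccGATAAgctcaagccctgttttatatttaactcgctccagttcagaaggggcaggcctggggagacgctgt
The Sis window is rich in A and T, with a GC content of 31.6%, and holds a CDX2 match that begins 43 bases before the start. In Lct, 3 GATA matches and a CDX2 match begin between 101 and 31 bases before the start. Enpep holds 1 GATA match, 70 bases before the start. The Anpep window has a GC content of 72.8% and no match to the 4 spellings searched. Its RefSeq start lies 12849 bases inside the gene as annotated by GENCODE, and which start was used in these libraries cannot be read from gene-level values. The spelling of the motifs was settled after the sequences had been read. A motif of HNF1 factors had been planned but was not searched, and that of HNF4 factors was searched in its place. Sites of HNF1 factors would therefore not be marked in these windows.

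Windows of all 9 members were found, among those of 9372 compared genes matched by symbol. GATA matches stood in 5 of the 9 members (Mgam, Lct, Enpep, Dpp4 and Mep1a) and in 14.9% of all windows. The CDX2 letters stood in Sis and Lct, and in 6.10% of all windows. The HNF4 letters stood in Treh and Alpi, and in 0.437% of all windows. The ETS letters GAGGAA, which factors of the family of Spib can recognise, stood in 1 member, Dpp4, and in 22.9% of all windows. Only this spelling was searched. The shorter run GGAA, or its reverse TTCC, also stands in the Lct and Anpep windows above, and its share was not counted. Because the spellings were settled after the sequences of the members had been read, these counts cannot show that the members hold more matches than other genes. A match is a run of letters and not a measured binding site, and binding was not measured here.

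Between the libraries most of the hydrolases differed little. None of the 9 reached 2-fold in either direction, and 6 stayed within a smaller limit of 25%, meaning a knockout level 25% higher or, by the same factor, 20% lower. Sis was 1.39-fold higher in the knockout, while Anpep was 1.44-fold and Enpep 1.34-fold lower. Log2 ratios are log2 of (knockout FPKM + 1) over (wild-type FPKM + 1). The median of the 9 was -0.01, beside -0.049 over all 13479 genes of at least 1 FPKM in 1 library or both. The latter median is itself below 0, and the share of all genes below 0 was not computed. Counts of log2 ratios below 0 in the lists that follow therefore have no background share. Of the 13479 genes, 1.61% were at least 2-fold higher and 2.51% at least 2-fold lower in the knockout, 4.12% in all. Past the 25% limit were 8.62% on the higher and 14.0% on the lower side, 22.6% in all. Among the 1100 genes of at least 50 FPKM, the class that holds all 9 members, the shares past the 25% limit were 14.3% higher and 12.8% lower, 27.1% in all, with a median log2 ratio of -0.038. Of the 9 members, 1 lay past that limit on the higher and 2 on the lower side, a share near the background. When the libraries were instead set equal in Vil1, Enpep was inside the limit, which left 1 on the lower side, and 1814 of all genes were past it on the higher and 1361 on the lower side. In tissue pieces, fewer enterocytes and less message per enterocyte cannot be told apart.

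**Figure D2:**
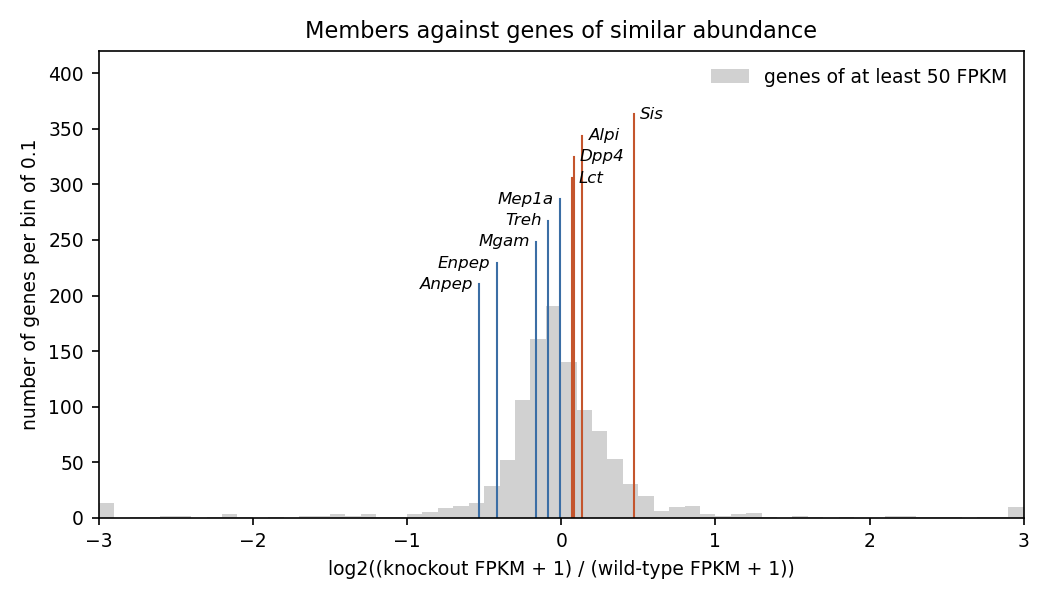
Log2 ratio on the horizontal axis, with grey bars for the number of genes of at least 50 FPKM in each bin and a vertical line for each hydrolase, blue below 0 and red above; line heights only separate the names, and the outermost bars hold all genes beyond the axis. Anpep, Enpep and Sis stand at the flanks of the distribution, at -0.53, -0.42 and 0.47, and the other 6 lines stand in its centre.

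Among the disaccharidases, Sis was the one past the 25% limit. Sucrase-isomaltase (ENSMUSG00000027790, minus strand of chromosome 3, 72888557 to 72967863, mm10, 48 merged exons) splits sucrose and the branch points of starch fragments. It had 868 FPKM in wild type, from 112914 reads, and 1203 FPKM in the knockout, from 158611 reads. The fold of 1.39 has an exact 95% counting interval of 1.38 to 1.40, which covers the counting of reads and not the spread between mice. Of the 1100 genes of at least 50 FPKM, 89, or 8.09%, had a log2 ratio as high as the 0.47 of Sis.

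Mgam, the other starch-digesting enzyme and a relative of Sis, went the other way by a small amount. Maltase-glucoamylase (ENSMUSG00000068587, plus strand of chromosome 6, 40628831 to 40769123) was at 716 FPKM in wild type and at 639 in the knockout, 1.12-fold lower with a read-counting interval of 1.11 to 1.13. Sis thus stood at 1.21 times the level of Mgam in wild type and at 1.88 times in the knockout. This ratio within a library does not depend on how the libraries are scaled.

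Lactase and trehalase had like levels in both libraries. Lct (ENSMUSG00000026354, minus strand of chromosome 1, 128284756 to 128328318), which splits milk sugar, had 190 and 199 FPKM, a fold of 1.05 with a counting interval of 1.03 to 1.07. Treh (ENSMUSG00000032098, plus strand of chromosome 9, 44673233 to 44686305), which splits the fungal and insect sugar trehalose, had 62.6 and 59.0 FPKM, 1.06-fold lower with an interval of 0.999 to 1.13 that spans 1. Phldb1, which overlaps Treh on the opposite strand, had 5.66 and 4.64 FPKM, and reads of the shared stretch could not be told apart if the counting took no account of strand. The 4 disaccharidases summed to 1836 FPKM in wild type and 2101 in the knockout, 1.14-fold higher. None of the other 3 lay past the 25% limit.

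The aminopeptidases were the pair with lower levels in the knockout. Anpep (ENSMUSG00000039062, minus strand of chromosome 7, 79821803 to 79861059) removes neutral residues from the amino end of peptides. It had 1888 FPKM from 136029 reads in wild type and 1307 FPKM from 95433 reads in the knockout, 1.44-fold lower (counting interval 1.43 to 1.46). Its log2 ratio of -0.53 was matched or passed on the lower side by 76 of the 1100 genes of at least 50 FPKM, or 6.91%. An unnamed locus inside Anpep on the same strand, Gm44974, had 13.1 and 9.25 FPKM. Enpep (ENSMUSG00000028024, minus strand of chromosome 3, 129269175 to 129332720), which removes acidic residues and also trims angiotensin peptides, had 597 FPKM from 48929 reads and 446 FPKM from 37100 reads, 1.34-fold lower with an interval of 1.32 to 1.35. For its log2 ratio of -0.42, 102 genes of that class, or 9.27%, were as low. Set equal in Vil1, the log2 ratio of Enpep was -0.31, inside the 25% limit. The ratio of Anpep to Enpep was 3.16 in wild type and 2.93 in the knockout, so that the pair kept nearly the same proportion.

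Anpep is also made by macrophages and fibroblasts, and Enpep by pericytes. The 7 myeloid markers summed to 132 and 90.4 FPKM, 1.46-fold lower in the knockout. Most of that sum was the lysozyme gene Lyz2, at 91.9 and 60.4 FPKM. Past the 25% limit, 5 of the 7 were lower, beside 14.0% of all compared genes. Csf1r, at 15.8 and 13.0 FPKM, was within the limit. Adgre1, at 4.99 and 5.51 FPKM, was also within it and was the only marker above 0. The 7 fibroblast and pericyte markers summed to 155 and 166 FPKM, with 3 log2 ratios above 0 and 4 below. The part of these cells in the aminopeptidase values was not tested.

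The remaining peptidases were at like levels in the libraries. Dpp4 (ENSMUSG00000035000, minus strand of chromosome 2, 62330073 to 62412231) cuts dipeptides after proline or alanine and inactivates incretin hormones. It had 229 and 242 FPKM, a fold of 1.06 with a counting interval of 1.04 to 1.08. T cells also carry Dpp4, as the surface antigen CD26. Of the 7 T cell markers compared, 6 were lower past the 25% limit, beside 14.0% of all compared genes. These markers stood at levels of at most 3.93 FPKM. The part of T cells in the Dpp4 value was not tested. Mep1a (ENSMUSG00000023914, minus strand of chromosome 17, 43474324 to 43502812), the alpha subunit of the metalloprotease meprin, had 255 and 253 FPKM, a fold of 0.994 with an interval of 0.972 to 1.02. Mep1b, the beta subunit that holds alpha at the membrane, had 506 and 418 FPKM, 1.21-fold lower. Summed over the 4 peptidases, the level was 2968 FPKM in wild type and 2248 in the knockout, 1.32-fold lower, and most of that sum was Anpep.

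Intestinal alkaline phosphatase was slightly higher in the knockout. Alpi (ENSMUSG00000079440, minus strand of chromosome 1, 87098002 to 87101606) removes phosphate from lipopolysaccharide and other substrates in the lumen. It had 242 and 266 FPKM, a fold of 1.10 with a counting interval of 1.07 to 1.13. Its close relative and neighbour Akp3, the phosphatase that adult mice express most in the duodenum, had 6.78 FPKM from 248 reads and 3.40 FPKM from 126 reads, 1.995-fold lower with an interval of 1.60 to 2.49. The other relatives, named here after their values were seen, were lower still, with Alppl2 at 1.37 and 2.69 FPKM and Alpl at 0.342 and 0.168 FPKM. Reads from near-identical stretches of these genes may have been divided or dropped in the counting, so their single values are uncertain.

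The total of the hydrolase pool is given here with the share of its most abundant members. Because members lay on both sides of 0, their sum differs by construction less than the most extreme members. All 9 messages summed to 5045 FPKM in wild type and 4615 in the knockout, 1.09-fold lower, and made up 1.37% and 1.22% of all FPKM. Anpep held 37.4% of the sum in wild type and 28.3% in the knockout. Sis held 17.2% and 26.1%. Mgam held 14.2% and 13.9%, and Enpep 11.8% and 9.67%. Of the 36 pairs that 9 genes form, 17 kept their ratio within the 25% limit and 1, Sis to Anpep, moved by 2-fold, from 0.460 to 0.921. Sis and Anpep have the highest and the lowest log2 ratio of the members, so theirs is by construction the widest pair. Pairs of other abundant genes were not counted, so whether the hydrolases differ from them in this was not tested. Lct to Dpp4 was the steadiest pair, at 0.829 and 0.824.

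**Figure D3:**
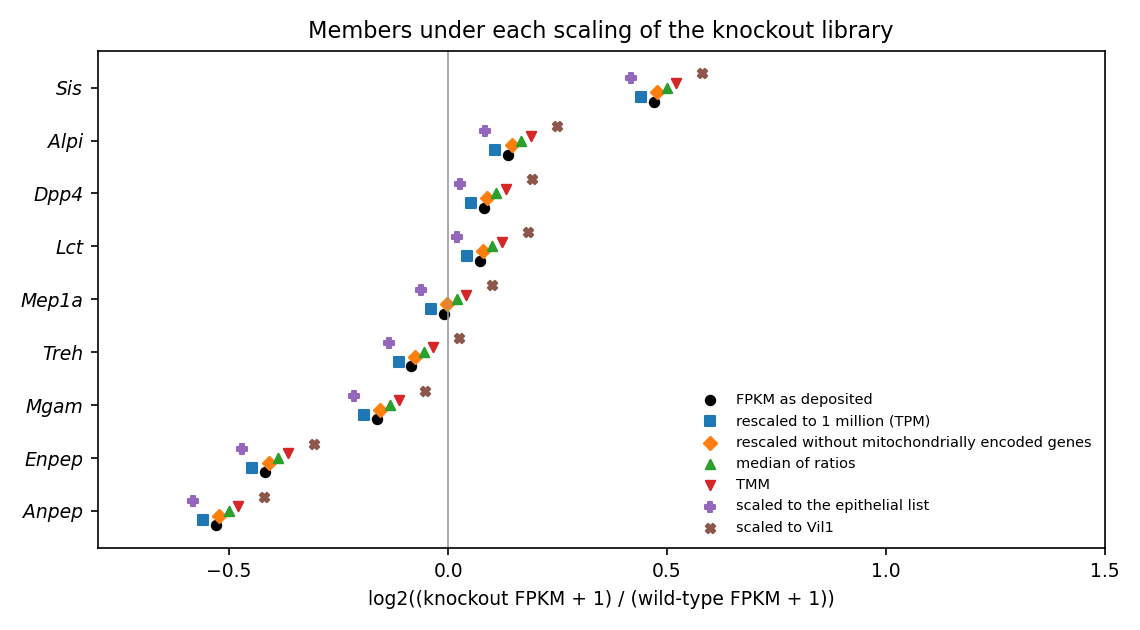
Log2 ratio of each hydrolase on the horizontal axis, with 1 symbol for each scaling of the knockout library, from FPKM as deposited to a level set by Vil1. Sis lies between 0.42 and 0.58 and Anpep between -0.58 and -0.42 under all of them, whereas the symbols of Mep1a and Treh fall on both sides of 0.

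Across 6 other scalings the sign held for Sis, Alpi, Dpp4, Lct, Mgam, Enpep and Anpep and changed for Mep1a (-0.06 to 0.10) and Treh (-0.14 to 0.02). With mitochondrially encoded genes left out of the scaling, the log2 ratios were 0.48 for Sis, -0.52 for Anpep and -0.41 for Enpep. Setting the libraries equal in Vil1 shifted all genes by 0.11, the one shift above 0.1. As deposited, 1162 genes were past the 25% limit on the higher and 1884 on the lower side.

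The other membrane hydrolases of the brush border lay on both sides of 0 as well. Of 20 listed genes, 17 reached 1 FPKM, with a median log2 ratio of 0.07. Past the 25% limit, 5 were higher and 4 lower, beside 8.62% and 14.0% of all compared genes. Among genes of at least 50 FPKM, the class of most of the 17, the shares were 14.3% and 12.8%. Past 2-fold was 1 in each direction, beside 1.61% higher and 2.51% lower of all compared genes. Naaladl1, a peptidase of the glutamate carboxypeptidase family, had 949 and 752 FPKM, 1.26-fold lower (1.24 to 1.28). Enpp7, the alkaline sphingomyelinase, had 559 and 366 FPKM, 1.53-fold lower.

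The genes past 2-fold in that list were a lipid and a nucleotide hydrolase. Plb1, the brush border phospholipase B, had 62.6 FPKM in wild type and 26.5 in the knockout, 2.36-fold lower (2.29 to 2.44). Nt5e, the ecto-nucleotidase CD73 of the villus tip, had 7.15 and 19.7 FPKM, 2.76-fold higher (2.57 to 2.96). Mme, the neutral endopeptidase named here after its values were seen, had 50.02 FPKM in each library. Folh1, the folate hydrolase, was listed at 0 in both libraries, and Tmprss15, the duodenal enteropeptidase that activates trypsinogen, had 8 reads and 2 reads. These 2 genes were likewise singled out after their values were seen.

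**Figure D4:**
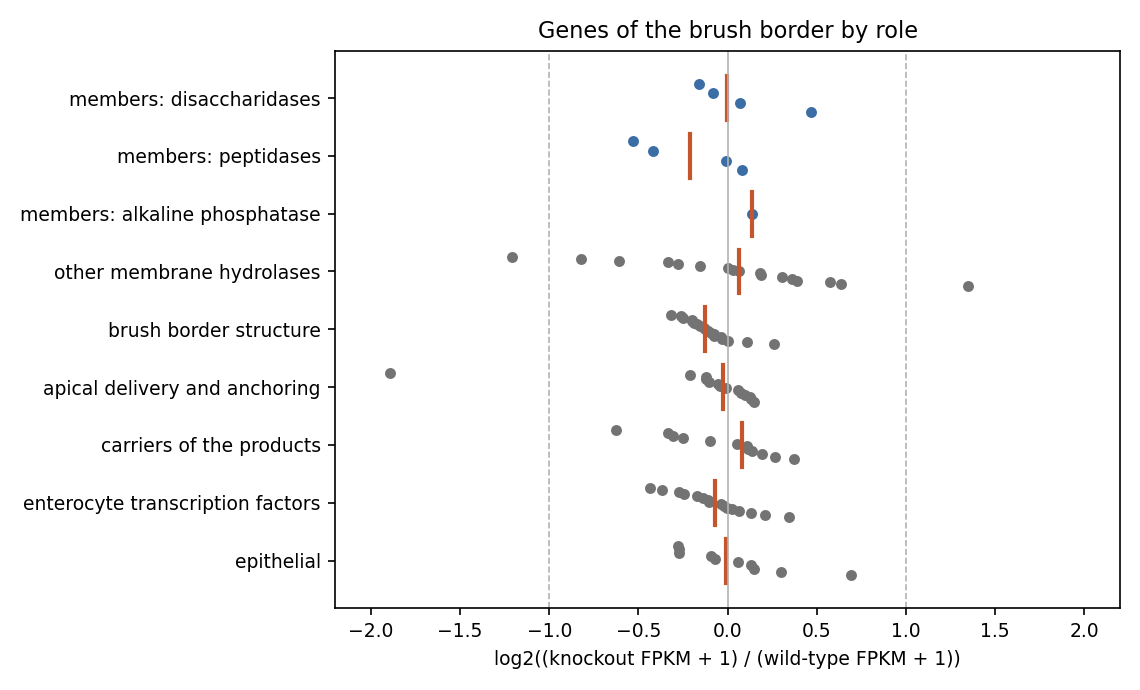
Log2 ratio of each compared gene, in rows by role, with blue points for the 9 hydrolases, grey points for genes of the other lists, a red bar at the median of each list and dashed lines at 2-fold. The structural genes lie close together, within -0.32 to 0.26, while the other membrane hydrolases spread from -1.21 to 1.35.

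The structure that carries the enzymes showed smaller differences. All 19 genes of the microvillus core and its adhesion and membrane links lay within the 25% limit, while 22.6% of all compared genes were past it. Their median log2 ratio was -0.13, beside a median of -0.049 over all compared genes. Below 0 were 16 of the 19, a count that has no background share. Villin (Vil1), the actin bundler, had 924 and 856 FPKM, 1.08-fold lower (1.07 to 1.09). The membrane motor Myo1a had 528 and 501 FPKM, and ezrin (Ezr), which ties the membrane to actin, had 492 and 429 FPKM. The median of the 19 was -0.022 when the libraries were set equal in Vil1, a scaling that itself brings the list near 0, since Vil1 is one of the 19 and lay close to their median.

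Genes of apical delivery and anchoring centred on a median log2 ratio of -0.02, for the 14 of 15 found in the table. Of the 14, 13 were within the 25% limit, while 22.6% of all compared genes were past it. The exception was Mal, a lipid raft protein of apical transport in epithelial cells, at 6.36 and 0.978 FPKM, 6.50-fold lower (4.78 to 9.01). Of all compared genes, 2.51% were at least 2-fold lower. Which cells of the tissue the Mal reads came from was not tested. Lgals4, the galectin that clusters hydrolases in rafts, had 935 and 975 FPKM. Slc9a3r1, a scaffold under the apical membrane, had 671 and 580 FPKM, and annexin Anxa13 had 186 and 172 FPKM. Mal was by far the least abundant of these 4.

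The carriers that take up the products lay around 0, with a median log2 ratio of 0.08 for the 12 listed. Past the 25% limit, 1 was higher and 2 lower, beside 8.62% and 14.0% of all compared genes. Among genes of at least 50 FPKM, the class of most of the 12, the shares were 14.3% and 12.8%. None was past 2-fold, beside 4.12% of all compared genes. Slc5a1, the sodium-coupled carrier for glucose and galactose, had 866 and 1041 FPKM, 1.20-fold higher (1.19 to 1.22). The peptide carrier Slc15a1 had 229 and 247 FPKM, and the neutral amino acid carrier Slc6a19 had 203 and 211 FPKM.

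The transcription factors known to act on these genes were near level. Of 18 listed factors, 16 were compared, with a median log2 ratio of -0.07. Past the 25% limit, 1 was higher and 2 lower, beside 8.62% and 14.0% of all compared genes. Hnf4a had 203 and 198 FPKM, 1.03-fold lower (1.004 to 1.05). Hnf4g had 176 and 179 FPKM, and Cdx2 had 61.3 FPKM in each library. Gata4 had 15.7 and 17.2 FPKM, 1.10-fold higher (1.01 to 1.20). Klf5, a factor of crypt cells, had 132 and 102 FPKM, 1.29-fold lower. Prdm1, which holds back the adult enzyme program before weaning, had 2.67 and 2.62 FPKM, from 260 and 258 reads.

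Genes of the weaning switch differed in both directions on the adult side, and 5 of 6 on the suckling side stayed within the 25% limit. Only 22.6% of all compared genes were past that limit, so most genes stayed within it. On the adult side, Arg2, a mitochondrial arginase, had 39.7 and 70.6 FPKM, 1.78-fold higher (1.64 to 1.92), and Sis was higher, while Treh was within the 25% limit and Akp3 was lower. On the suckling side, 6 genes had a median log2 ratio of -0.04 and a summed level of 82.2 and 83.0 FPKM. The neonatal antibody receptor gene Fcgrt had 38.9 and 41.4 FPKM, Cpox 12.4 and 14.4 FPKM, and the lysosomal galactosidase Glb1 13.9 and 12.2 FPKM.

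Enterocyte markers that are not hydrolases lay on both sides of 0. Past the 25% limit, 4 of the 12 genes were higher and 1 lower, beside 8.62% and 14.0% of all compared genes. Among genes of at least 50 FPKM, the class of most of the 12, the shares were 14.3% and 12.8%. Over the 12 the median log2 ratio was 0.11, while the log2 ratio of their summed FPKM was -0.13, the opposite sign. The sum is mostly that of the 3 most abundant genes. The fatty acid binding protein Fabp2 had 5325 and 4103 FPKM, 1.30-fold lower (1.28 to 1.31), apolipoprotein Apoa1 had 4070 and 3436 FPKM, and keratin Krt20 of mature villus cells had 1241 and 1207 FPKM. The 4 on the higher side, named after their values were seen, were the retinol binding protein gene Rbp2 at 493 and 853 FPKM, Fabp1 at 486 and 764, the apolipoprotein gene Apoa4 at 59.9 and 86.8 and the glutathione transferase gene Gsta1 at 14.2 and 20.4 FPKM. General epithelial genes had a median of -0.01 over 10 genes, with Krt8 at 2131 and 2337 FPKM and Epcam at 979 and 931 FPKM. The lowest value among the 10 in either library was 84.8 FPKM.

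Of the 3 lists by position along the villus, that of the lower villus had the lowest median. The 6 genes of the villus bottom had a median log2 ratio of -0.58, with 4 lower past the 25% limit. On that side were 14.0% of all compared genes and 12.8% of genes of at least 50 FPKM. Among the 4 were the antibacterial surface protein gene Lypd8 at 1300.0 and 803 FPKM and the pore-forming protein gene Gsdmd at 142 and 97.6 FPKM. Reg1, also among them, had 18.6 and 6.01 FPKM, while Nlrp6 had 63.6 and 64.3 FPKM. The 7 genes of the villus middle, all nutrient carriers, had a median of 0.11, and the 8 compared of the tip had 0.14. Nt5e was the only gene of these 2 lists past 2-fold, beside 1.61% of all compared genes at least 2-fold higher. The adenosine deaminase Ada of the tip had 136 and 118 FPKM. These lists are short, and some of their genes stand on other lists here.

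Genes of the proximal small intestine differed in both directions. Of 8 listed, 5 reached 1 FPKM, with a median log2 ratio of 0.13. The list's summed level, 520 and 794 FPKM, was 1.53-fold higher in the knockout and was mostly that of Fabp1, the fatty acid binding protein shared with the liver, which had 486 and 764 FPKM, 1.57-fold higher (1.52 to 1.63). The iron exporter Slc40a1 was the one past 2-fold, at 8.75 and 3.41 FPKM, beside 2.51% of all compared genes at least 2-fold lower. The iron carrier Slc11a2 had 7.38 and 6.76 FPKM. The 8 distal genes had a median of -0.19, beside a median of -0.049 over all compared genes. Below 0 were 7 of them, a count that has no background share. Past the 25% limit was 1 of the 8, on the lower side, beside 14.0% of all compared genes. Beside Fabp6 and Slc10a2, given above, the bile acid exporter subunit Slc51a had 311 and 271 FPKM.

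Marker lists of other cells that whole tissue can hold differed from one another. The median log2 ratio was -0.72 over 7 T cell genes, -0.95 over 5 B cell genes and -0.48 over 7 myeloid genes. It was -0.03 over 7 fibroblast and pericyte genes, 0.09 over 4 smooth muscle genes, -0.06 over 4 endothelial genes and -0.48 over 5 pancreatic acinar genes. Goblet cell genes had 0.25 over 5, Paneth cell genes 0.39 over 4 and tuft cell genes 1.51 over 4. The 1 FPKM added to each value pulls medians of lists at few FPKM, such as the T cell and tuft cell lists, towards 0. Such medians cannot be set directly beside those of abundant lists. The part of these cells in the hydrolase levels was not tested.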

How the data were processed

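Per the labels' protocols, small intestine RNA was extracted with TRIzol and its cDNA amplified by SMART-Seq II, with 1 library per genotype. The authors deposited FPKM values. The submitters' processing notes list Bowtie2 2.2.3, HTSeq 0.6.0 and mm10, with no role for any of them. The strand setting, annotation release, filters and pooling of mice are not given in the sources read. The members and gene lists were chosen with earlier results of these data known.

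Groups came from the titles. Identifiers were joined to GENCODE M21, which held 27222 of 27275. The product of FPKM and merged exon length fell within 0.01 of a whole read for 90.6% of the wild-type and 90.7% of the knockout values above 0. Its step gave the library size by which each FPKM had been divided, and reads served only for counting intervals (Clopper-Pearson, 95%, scipy 1.17.1). No interval is given where reads were not whole. PCR reads are not independent molecules, so intervals cover counting error only. Genes of at least 1 FPKM in either library were compared, on log2(FPKM + 1). No test was possible. Named genes are the members, Spib, known regulators, Akp3 and Mep1b, and of each list those past 2-fold and the 3 most abundant, apart from a few items that are not reported here. Where a list served only for its sum or median, genes are not named. Functions were tested on simulated data.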

Additional observations from a re-analysis of the deposited data

How the results depend on the processing

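The median log2 ratio of the 9 hydrolases stayed between -0.06 and 0.10 under pseudocounts of 0.1 and 5, the filters and 6 scalings. The log2 ratio of their summed FPKM was -0.13 as deposited. It was -0.16 rescaled to TPM, -0.12 without mitochondrially encoded genes, -0.10 by median of ratios, -0.077 by TMM, -0.18 by the epithelial list and -0.018 by Vil1. For the disaccharidase sum these were 0.16 by TPM, 0.22 by median of ratios, 0.25 by TMM, 0.14 by the epithelial list and 0.31 by Vil1, against 0.19 as deposited. For the peptidase sum they were -0.43 by TPM, -0.37 by median of ratios, -0.35 by TMM, -0.45 by the epithelial list and -0.29 by Vil1, against -0.40. Scaled to Vil1, the median of brush border structure was -0.022, and by the epithelial list that of endothelial genes was -0.10. With a pseudocount of 0.1, genes past 2-fold numbered 355 higher and 575 lower, the B cell median was -1.34, the T cell median -1.16, the pancreatic acinar median -0.95 and the tuft cell median 1.98. With a pseudocount of 5 they numbered 61 and 122, with 524 and 792 past the 25% limit, and those medians were -0.42, -0.27, -0.15 and 0.77. The myeloid median was -0.29 there. Among genes of at least 5 FPKM, 97 were higher and 193 lower past 2-fold, and 577 and 921 past the 25% limit. Scaled to Vil1, 1814 were higher past the 25% limit. As sums in place of medians, T cell, B cell and tuft cell genes gave -1.25, -1.42 and 2.11. A filter lowers the counts because it tests fewer genes, and a scaling shifts all genes alike. A larger pseudocount pulls the log2 ratios of genes at few FPKM towards 0. Any other cause was not tested. No paired analysis was possible because each genotype has 1 library, and for the same reason no library could be left out.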
